A study of Mus musculus with 32 samples.

Results

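The response of the wild-type distal colon to azoxymethane and dextran sodium sulfate was taken from 16 of the 32 arrays of the series, those titled as treated or untreated WT (wild type). They hold RNA of 10 treated and 6 untreated mice of the strain C57 BL6NCr, with a single animal per array as far as the labels say. Treated mice were 6 to 8 weeks old when they received azoxymethane (AOM), a carcinogen that alkylates DNA and causes colon tumours in rodents, at 10 mg/kg into the peritoneum. After 1 week they drank 2% dextran sodium sulfate (DSS), a polymer that injures the colon lining, for 3 days and were then killed, and the labels give their state as colitis. For the untreated mice the labels name the strain and the tissue, but no age, handling or hour of collection, so the regimen cannot be told apart from differences in these. No group received AOM alone or DSS alone, and all treated animals were taken at a single time, when DSS had just ended. The other 16 arrays are of mice that lack Myd88, 10 of them under the same regimen and 6 untreated.

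The colon lining renews itself from stem cells at the base of its crypts, which are held in a dividing state by Wnt signals and marked by genes such as Lgr5 and Ascl2. Their daughters divide in the lower crypt and then become absorptive colonocytes, mucus-making goblet cells or hormone-releasing enteroendocrine cells. Colonocytes take up salt and water through channels and exchangers and are sealed to each other by tight junctions. DSS breaks this barrier, and immune cells below it respond through Toll-like receptors and cytokines of the IL-1 family.

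In all, 753 of 18193 genes changed at an adjusted p under 0.05 (limma, Benjamini-Hochberg over 34945 probe sets), which is 4.14% of the genes. Of these 311 rose (1.71%) and 442 fell (2.43%), 31 and 53 of them by at least 2-fold. Among probe sets 1229 of 34945 were called (3.52%), 490 higher (1.4%) and 739 lower (2.11%). The treated and untreated arrays did not overlap for 257 genes (1.41%), with the treated arrays all above in 95 (0.522%) and all below in 162 (0.89%). Most genes below were named by a rule given with the processing, other members of a list were added after their values were seen, and each is described by its brightest probe set. Arrays are numbered by their repeat number in the labels. A call means an adjusted p under 0.05, and differences are given on the log2 scale as treated minus untreated ± standard error. The median difference over all genes was 0, and 47.42% of genes were higher in treated mice. At an unadjusted p under 0.05 stood 3720 of the 18193 genes. Counts of list members at that threshold, and of members higher or lower, are to be read beside these shares. Members of a list were measured on the same arrays, so such counts are not independent evidence. Of the 753 genes, 314 were called again with each of the 16 arrays left out in turn, 129 higher and 185 lower. The count itself fell to between 395 and 472 without untreated repeat 1, 3, 4, 5 or 6.

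**Figure D1:**
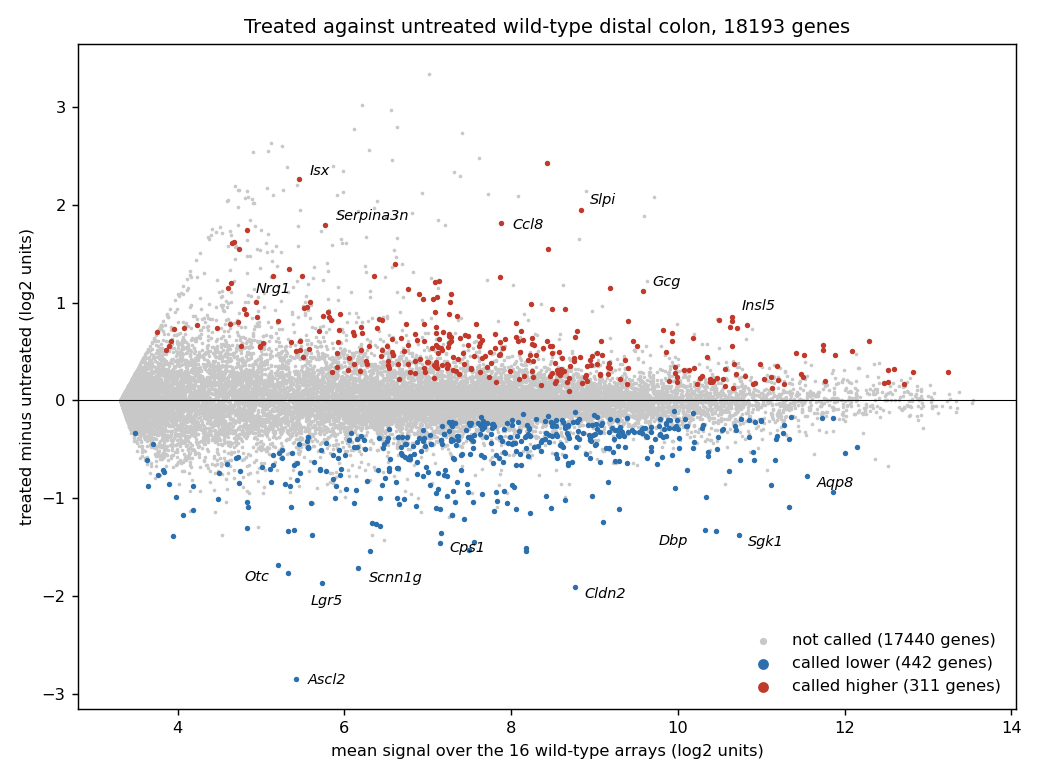
Each point is a gene, with its mean signal over the 16 wild-type arrays on the x axis and the treated minus untreated difference on the y axis, both in log2 units. Red and blue points are the 311 genes called higher and the 442 called lower, and Ascl2 lies lowest of all called genes at -2.84.

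The arrays were first checked for tissue and quality. The 7 measured colon markers averaged between 11.03 and 11.62 log2 units on treated and between 11.51 and 11.69 on untreated arrays, while 6 genes of the small intestine, stomach and liver averaged between 4.14 and 4.81 on all of them. Hoxb13, a position gene of the hindmost gut, stood at a median of 11.42 in treated and 11.61 in untreated mice. Pairs of arrays within a group correlated at 0.9425 or above across probe sets in treated and at 0.9757 or above in untreated mice, so the treated arrays spread more. RNA integrity was read from the Actb and Gapdh control probe sets, whose 3' signal less their 5' signal averaged -0.012 ± 0.024 in treated and 0.025 ± 0.039 in untreated mice (SD, n = 10 and 6). This mean joins readings of opposite sign. Actb alone averaged 0.391 in treated and 0.428 in untreated mice, and Gapdh -0.415 and -0.378. With the mean of both as a covariate, called the 3'/5' covariate from here on, 107 genes were called. The mean was lower in treated mice, so this covariate is not independent of treatment. Genes of squamous epithelium, which lines the skin and the anal canal, differed by a median of 2.11 over the 17 measured. All 17 were higher in treated mice, 12 of them at an unadjusted p under 0.05, and none was called. Their mean was 4.40 at the lowest, 7.36 at the median and 11.3 at the highest treated array, against 4.26, 5.43 and 5.82 in untreated mice. Treated repeats 1 and 2 were the highest, and Krt14, a keratin of basal squamous cells, reached 12.79 there against a median of 7.71 in treated and 4.76 in untreated mice (3.33 ± 1.01, adjusted p = 0.0829). The 14 skeletal muscle genes had a median difference of 1.30 with none called. Their mean had a median of 7.02 in treated and 4.81 in untreated mice. It was highest on treated repeat 4 at 10.1 and on untreated repeat 3 at 9.42. With both tissue means as covariates 241 genes were called. Xist, the RNA of the inactive X chromosome of females, lay between 11.8 and 12.2 on treated repeats 1 to 5 and untreated repeats 1 to 3 and between 4.54 and 5.91 on the other wild-type arrays, and the labels give no sex. With Xist as a covariate 765 genes were called, 687 of them among the 753. Below, the tissue means stand for this pair, and either covariate for the tissue means or the 3'/5' measure, each in a fit of its own. The part of squamous and muscle RNA in the other results was not tested. In whole tissue, fewer cells of a type and less RNA per cell cannot be told apart.

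**Figure D2:**
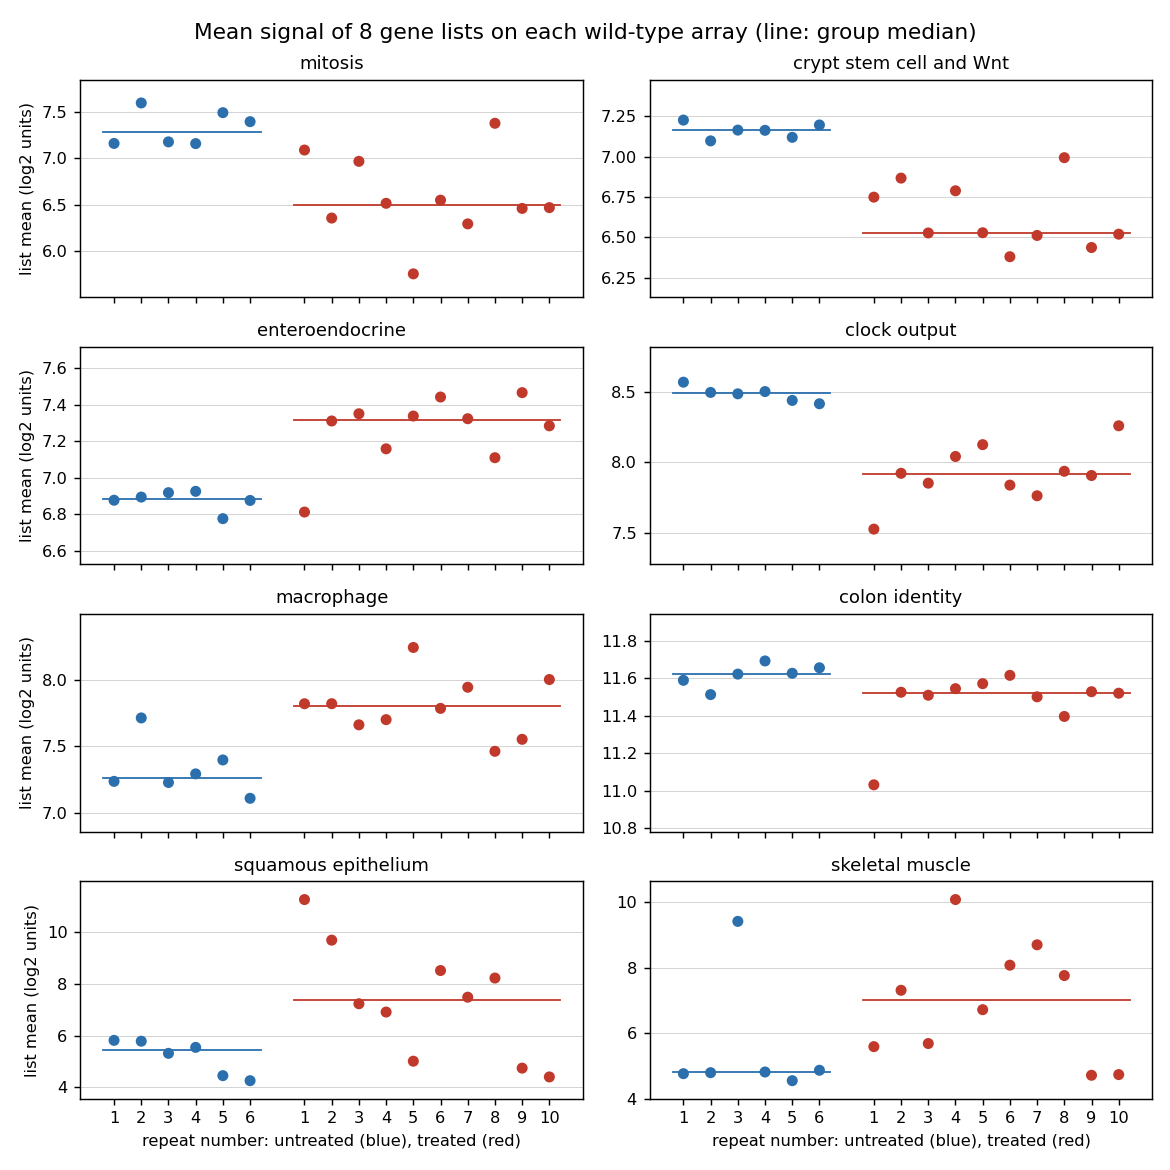
The panels show the mean log2 signal of 8 gene lists (y axis) on each wild-type array, ordered by repeat number, with untreated arrays in blue, treated arrays in red and a line at each group's median. Clock output and crypt stem cell means of all treated arrays lie below the untreated ones, the mitosis mean of treated repeat 8 lies among the untreated arrays, and the squamous mean peaks on treated repeats 1 and 2.

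The largest fall of all called genes was in a gene of crypt stem cells. Ascl2, the transcription factor that sets stem cell identity in the gut, had signals between 6.90 and 7.38 with a median of 7.28 in untreated mice. In treated mice it ran from the floor, the log2 of 10 at which the deposited values end, to 6.01 with a median of 3.86, and it lay on the floor on 3 of the 10 arrays. The groups did not overlap, and the difference was -2.84 ± 0.45 (adjusted p = 0.00431). The other probe sets of Ascl2 gave -2.54 ± 0.20 and -2.13 ± 0.20. Lgr5, a receptor for R-spondins that strengthens Wnt signals, lay between 6.75 and 7.01 with a median of 6.90 in untreated mice. Its treated arrays ran from 4.06 to 6.58 with a median of 4.81, all below the untreated ones, at a difference of -1.87 ± 0.34 (adjusted p = 0.00958), while a second, dim probe set was at -0.26 ± 0.22 (adjusted p = 0.592). Treated repeat 8 was the highest treated array for Ascl2, Lgr5, Smoc2 and Axin2 alike.

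Among the Wnt feedback genes of the list Axin2 and Rnf43 fell, and the others were not called. Axin2, a direct Wnt target that restrains the pathway, ran from 5.71 to 6.83 with a median of 6.30 in treated and from 7.14 to 7.46 with a median of 7.35 in untreated mice, again without overlap (-1.06 ± 0.14, adjusted p = 0.00169). Rnf43, a ubiquitin ligase that removes Wnt receptors, fell by 1.05 ± 0.11 (adjusted p = 0.000297), from a median of 6.72 to 5.73. Smoc2, a secreted protein of stem cells, went from a median of 8.02 to 6.75 (-1.17 ± 0.22, adjusted p = 0.0118). Cdca7 (-1.10, called in 9 of the 16 fits with an array left out), the sodium-potassium-chloride carrier Slc12a2 (-0.72) and the BMP co-receptor Rgmb (-0.45) fell as well. Of the 22 measured stem cell and Wnt genes 8 fell and none rose, 16 were lower, the median was -0.40, and for 7 the groups did not overlap. The other 14 were not called, among them Lrig1 (-0.42 ± 0.12, adjusted p = 0.0584), Sox9 (-0.38), Myc (-0.36), Cd44 (0.16) and Prom1, the brightest of them (-0.41 ± 0.13, adjusted p = 0.104). In all 6 members were higher, by up to 0.48, and 2 of these stood at an unadjusted p under 0.05. A fit without treated repeat 1 called 1 member higher. Axin2 and Rnf43 were the members called with the 3'/5' covariate, and 6 of the list were called with the squamous and muscle means.

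**Figure D3:**
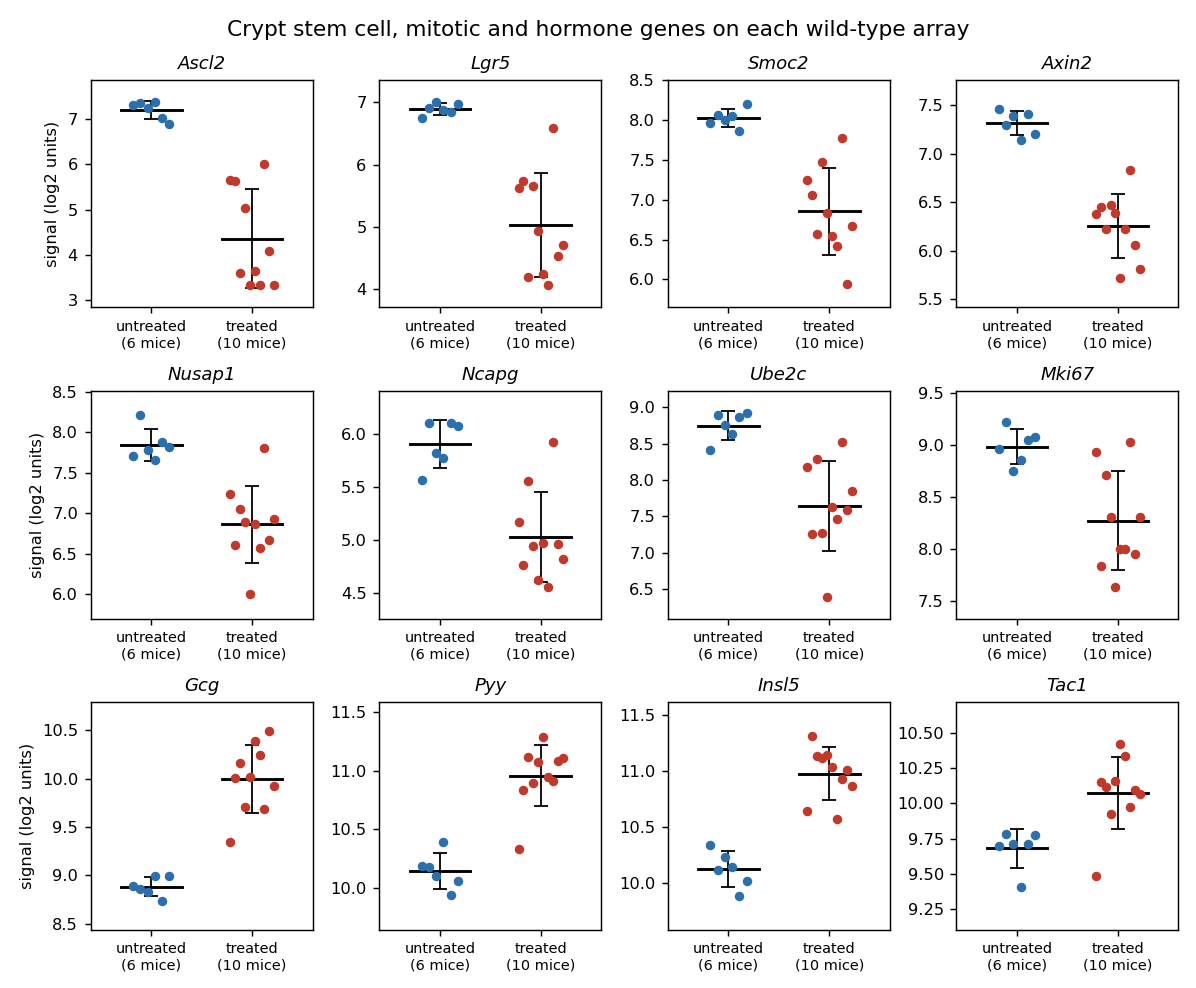
The 12 panels give the log2 signal (y axis) of 4 stem cell and Wnt genes, 4 mitotic genes and 4 hormone genes on each array of untreated (blue) and treated (red) wild-type mice, with the mean as a bar and the SD as whiskers. Ascl2, Lgr5, Smoc2, Axin2, Gcg and Insl5 separate the groups without overlap, while each mitotic gene has treated arrays within the untreated range.

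Signals of the mitotic machinery were lower, with a wide spread between treated mice. All 33 measured mitosis genes were lower in treated mice, also with the values as deposited and with median centring, and their median was -0.75 (-0.91 with the tissue means and -0.69 with the 3'/5' covariate). Of these 9 fell: Ube2c, Cdk1, Nusap1, Birc5, Ncapg, Ccnb2, Hmmr, Kif11 and Plk1, and the groups overlapped for every gene of the list. Nusap1, which bundles spindle microtubules, ran from 6.00 to 7.80 with a median of 6.88 in treated and from 7.66 to 8.21 with a median of 7.80 in untreated mice (-0.98 ± 0.20, adjusted p = 0.0168). Ncapg, a condensin subunit that packs chromosomes, went from a median of 5.94 to 4.95 (-0.88 ± 0.18, adjusted p = 0.019). Ube2c, the enzyme that loads ubiquitin for the anaphase-promoting complex, went from a median of 8.82 to 7.61 (-1.11 ± 0.25, adjusted p = 0.0292), a call lost without any 1 of untreated repeats 2 to 6.

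Treated repeat 8 had the highest mean of the treated arrays over the 33 genes, at 7.38, within the untreated range of 7.16 to 7.59, while treated repeat 5 was lowest at 5.75 and the treated median was 6.49. Without treated repeat 8 the number of mitosis genes called was 27, and without treated repeat 1 it was 20. It was between 2 and 5 without any 1 of treated repeats 2, 4, 6, 7, 9 and 10 or any 1 of the 6 untreated arrays. With the squamous and muscle means as covariates 3 were called, and with the 3'/5' covariate none, although 32 of the 33 had an unadjusted p under 0.05 without covariates. Mki67, the proliferation marker, ran from 7.64 to 9.03 with a median of 8.16 in treated and from 8.75 to 9.22 with a median of 9.01 in untreated mice (-0.71 ± 0.20, adjusted p = 0.0629). Cdc20, the brightest mitotic gene not called, was at -0.85 ± 0.24 (adjusted p = 0.0659), and a dimmer probe set of it was called lower (-0.84 ± 0.20, adjusted p = 0.0369), in 4 of the 16 fits with an array left out.

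Many promoters of mitotic genes hold the cell cycle homology region, a short element bound by the MuvB complexes that silence these genes in resting cells and switch them on before mitosis, often next to CCAAT boxes bound by NF-Y. RefSeq promoter windows of 300 bases, from 250 before to 50 after a gene's start on GRCm38.p6, were searched on both strands for TTTGAA, the letters of that element, and for CCAAT. Of the 34 mitosis genes 30 had a window, and 22 of these (73.3%) held TTTGAA against 20.2% of 27018 genes with a window. CCAAT was held by 25 (83.3%) against 41.1% of all genes. It was about as frequent among the clock output genes described below (8 of 10, 80%), so it does not set mitotic promoters apart from that list. The windows of 3 called genes are shown because each carries both elements, as do those of the called Ncapg, Hmmr, Kif11 and Plk1. Nusap1 and Birc5, also called, held neither, and some genes that were not called, such as Mki67 and Top2a, held both. Capitals mark TTTGAA or its reverse TTCAAA, and CCAAT or its reverse ATTGG; the capital run in Ube2c beginning CCAATT is a pair of overlapping CCAAT boxes on opposite strands. The windows are Ccnb2 at chr9:70421505-70421804 on the minus strand, Cdk1 at chr10:69352863-69353162 on the minus strand and Ube2c at chr2:164769679-164769978 on the plus strand. A match of letters is a description and not a bound site.
Ccnb2: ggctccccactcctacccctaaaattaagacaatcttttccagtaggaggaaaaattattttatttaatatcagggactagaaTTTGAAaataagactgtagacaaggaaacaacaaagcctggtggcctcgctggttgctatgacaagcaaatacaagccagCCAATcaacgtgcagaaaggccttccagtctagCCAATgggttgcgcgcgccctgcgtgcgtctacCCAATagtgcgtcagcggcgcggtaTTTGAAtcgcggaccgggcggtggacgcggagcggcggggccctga
Cdk1: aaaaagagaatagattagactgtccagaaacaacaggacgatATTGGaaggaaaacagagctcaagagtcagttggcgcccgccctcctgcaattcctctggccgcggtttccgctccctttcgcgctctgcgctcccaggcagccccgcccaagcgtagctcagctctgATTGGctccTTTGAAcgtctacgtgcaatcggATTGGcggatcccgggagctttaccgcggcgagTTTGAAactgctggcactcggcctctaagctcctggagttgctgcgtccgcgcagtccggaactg
Ube2c: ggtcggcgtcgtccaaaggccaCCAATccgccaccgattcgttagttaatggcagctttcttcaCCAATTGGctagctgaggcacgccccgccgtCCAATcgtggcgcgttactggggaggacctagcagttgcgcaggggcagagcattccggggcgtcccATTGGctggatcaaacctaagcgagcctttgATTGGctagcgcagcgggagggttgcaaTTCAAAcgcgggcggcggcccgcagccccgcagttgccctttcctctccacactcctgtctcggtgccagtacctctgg

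Genes of earlier cell cycle steps differed less. Of 30 measured DNA replication genes 29 were lower, with a median of -0.32, and 1 fell: Cdt1, which loads the replicative helicase (-0.66 ± 0.17, adjusted p = 0.0449), a call lost without any 1 of 12 arrays, namely treated repeats 3, 5, 6, 7, 9 and 10 and all untreated ones. Without treated repeat 1 the list had 3 calls and without treated repeat 8 it had 5. Pcna, the clamp of replicating polymerases, had a median of 10.21 in treated and 10.51 in untreated mice and was not called (-0.20 ± 0.10, adjusted p = 0.286). None of the 24 measured DNA repair genes was called, at a median of -0.20 with 20 lower and 10 of them at an unadjusted p under 0.05 (2 calls without treated repeat 1, 1 without treated repeat 9). Mgmt, the enzyme that removes the methyl group AOM leaves on guanine, lay at or near the floor in both groups, with a median of 3.32 in treated and 3.47 in untreated mice (-0.14 ± 0.28), so no difference could be measured there. The 17 measured p53 targets had a median of 0.05. Cdkn1a, the p53-induced inhibitor of the cell cycle, was at -0.29 ± 0.14 (adjusted p = 0.28), and a dimmer probe set of it was called lower (-0.55 ± 0.13, adjusted p = 0.0346), in 7 of the 16 fits with an array left out. By the brightest probe set the 1 member that fell was Psrc1, a microtubule protein also known from dividing cells, from a median of 6.48 to 5.43 (adjusted p = 0.0338), which lost its call without any 1 of treated repeats 3 to 7 and the 6 untreated arrays.

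Of the enteroendocrine genes 3 peptide hormones rose. Gcg, the precursor of glucagon-like peptides, ran from 9.34 to 10.49 with a median of 10.02 in treated and from 8.74 to 8.99 with a median of 8.88 in untreated mice (1.12 ± 0.14, adjusted p = 0.00169). Insl5, a peptide of the relaxin family made by cells of the hind colon, had no overlap either, with medians of 11.02 and 10.13 (0.85 ± 0.11, adjusted p = 0.00118). Pyy, the hormone peptide YY that slows the gut and curbs appetite, had medians of 11.01 and 10.14 (0.81 ± 0.11, adjusted p = 0.00226), and its lowest treated array, repeat 1 at 10.33, reached below the highest untreated one at 10.39. All 3 peptides are products of L cells, and all 3 kept their calls with each array left out and with each covariate on its own.

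The rest of the enteroendocrine list was less clear. Of its 17 measured genes 15 were higher, at a median of 0.37, and 3 rose. Tac1, the brightest not called, was at 0.39 ± 0.11 (adjusted p = 0.0667), and the granule protein Chga (0.15), the enzyme of serotonin synthesis Tph1 (0.54) and Sst of D cells (-0.06) were not called. Treated repeat 1 had the lowest list mean of the treated mice, 6.81 against a median of 7.32, and without it 8 members were called.

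Channels and carriers of salt and water fell in 7 of 24 measured cases and rose in 1, with 20 lower and a list median of -0.24 (-0.36 with the values as deposited). Scnn1g, the gamma subunit of the epithelial sodium channel, ran from 4.66 to 6.70 with a median of 5.44 in treated and from 6.92 to 7.69 with a median of 7.19 in untreated mice. The groups did not overlap, at a difference of -1.71 ± 0.26 (adjusted p = 0.00328). Its partner Scnn1b fell by 0.38 ± 0.09 (adjusted p = 0.0369, called in 9 of the 16 fits with an array left out), and Scnn1a was at -0.17 ± 0.08 (adjusted p = 0.273). Sgk1, the kinase through which aldosterone keeps this channel at the cell surface, had medians of 10.14 and 11.72 (-1.38 ± 0.24, adjusted p = 0.00759). Its untreated repeat 1, at 10.93, lay below the highest treated array at 11.18. Both Scnn1g and Sgk1 kept their calls with each array left out and with each covariate.

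Secretory and water channels fell beside them. Cftr, the chloride channel of crypt cells, ran from 7.12 to 8.82 with a median of 8.12 in treated and from 8.95 to 9.21 with a median of 9.00 in untreated mice (-0.98 ± 0.19, adjusted p = 0.0144). Kcnn4, a potassium channel that drives chloride secretion, went from a median of 9.28 to 8.30 (-1.02 ± 0.21, adjusted p = 0.0176), and both lost their calls with the 3'/5' covariate and with the tissue means. Aqp8, the water channel of surface colonocytes, went from a median of 12.04 to 11.22 without overlap (-0.78 ± 0.14, adjusted p = 0.00909), while Aqp4, a water channel of the basolateral membrane, rose by 0.83 ± 0.15 (adjusted p = 0.0092) from a median of 9.88 to 10.83. Car4, a carbonic anhydrase of the cell surface, fell by 0.48 ± 0.12 (adjusted p = 0.0371, called in 6 of the 16 fits). Slc26a3, the chloride-bicarbonate exchanger and the brightest member, was not called at -0.13 ± 0.07 (adjusted p = 0.374), and neither were Slc9a3, Atp1b1 or Car1. Of its other probe sets 2 bright ones were not called either (-0.20 ± 0.11 and -0.23 ± 0.12), while a dimmer one was lower without overlap, from a median of 8.11 to 7.23 (-0.92 ± 0.16, adjusted p = 0.00844), so the probe sets of Slc26a3 disagree. With the tissue means 3 members were called (Scnn1g, Sgk1 and Aqp8), and with the 3'/5' covariate 2 (Scnn1g and Sgk1).

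At the tight junction 2 claudins moved in opposite directions while 14 of the 16 measured genes were not called, at a median of -0.04 (-0.14 with the values as deposited and -0.15 with median centring). Cldn2, which forms a pore for sodium and water in crypt cells, ran from 6.17 to 9.51 with a median of 8.00 in treated and from 9.76 to 10.20 with a median of 9.98 in untreated mice. The treated arrays were all below and spread over more than 3 log2 units, at a difference of -1.91 ± 0.45 (adjusted p = 0.0321), while a dimmer probe set was not called (-1.19 ± 0.35, adjusted p = 0.0756). The call was lost without treated repeat 5 or 6 or any 1 of the 6 untreated arrays. Cldn8, a claudin that tightens the distal colon against sodium, had medians of 10.92 in treated and 10.22 in untreated mice without overlap (0.74 ± 0.13, adjusted p = 0.00909). Neither claudin was called with the 3'/5' covariate. The adhesion protein Cdh1 was at 0.06 ± 0.06 (adjusted p = 0.674).

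**Figure D4:**
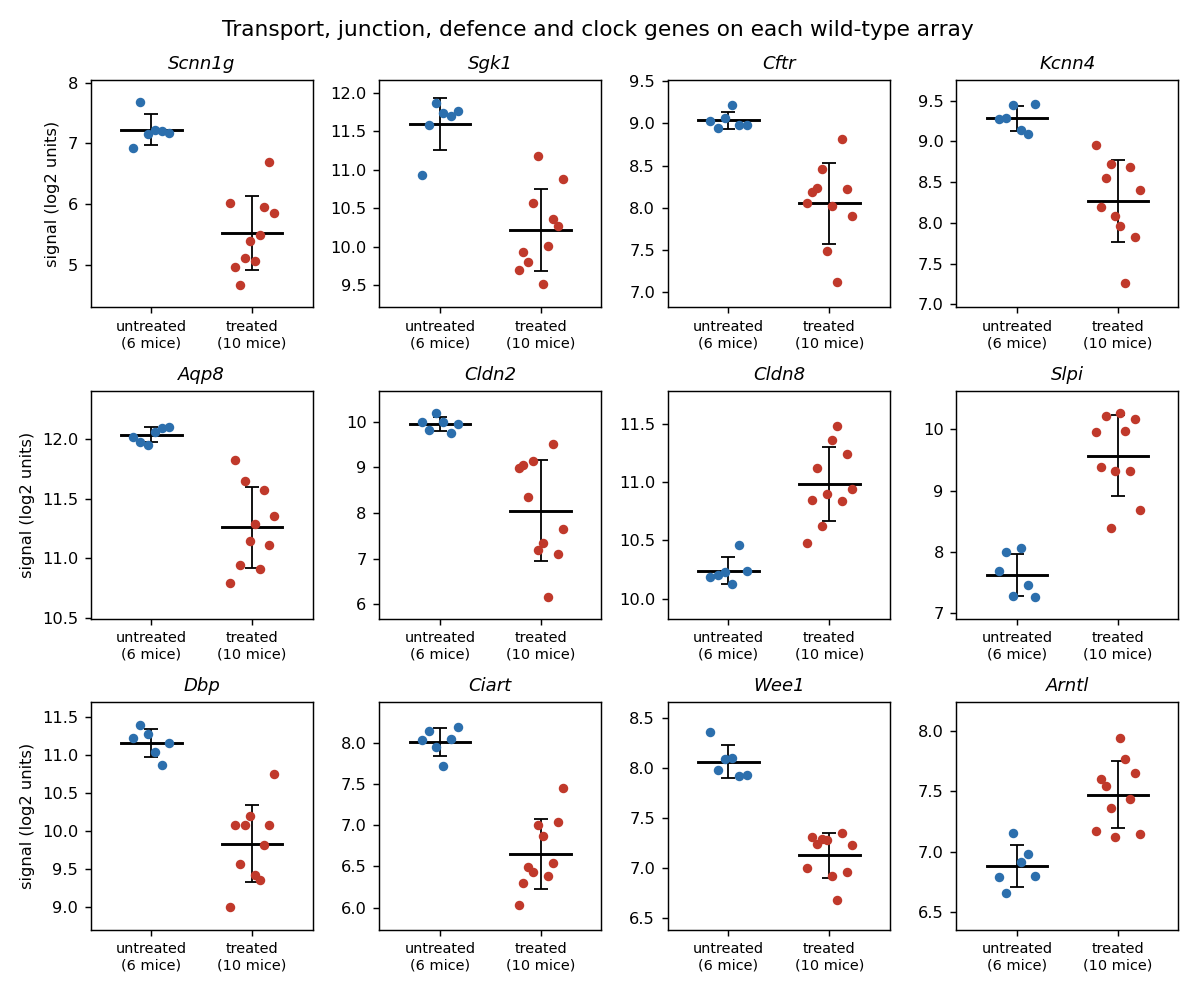
The 12 panels give the log2 signal (y axis) of transport, junction, defence and clock genes on each array of untreated (blue) and treated (red) wild-type mice, with the mean as a bar and the SD as whiskers. Scnn1g, Cftr, Kcnn4, Aqp8, Cldn2, Dbp, Ciart and Wee1 lie below the untreated arrays on every treated array, and Cldn8 and Slpi above.

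Markers of the mature lining showed few calls. Of 18 goblet cell genes 1 fell, Atoh1, the transcription factor of secretory cells (-0.46 ± 0.11, adjusted p = 0.0329), and its call was lost without any 1 of treated repeats 3, 4, 5 and 7 and untreated repeats 1, 3, 4, 5 and 6, and with either covariate. The bright goblet genes Zg16 (-0.12), Muc2 (0.09) and Tff3 (-0.06) were not called, and the list median was -0.03 (-0.06 with the values as deposited and -0.07 with median centring). Retnlb, an antimicrobial protein of goblet cells, had a median of 5.20 in treated mice with a range from the floor to 9.36, while 5 of the 6 untreated arrays lay on the floor. With such a spread it was not called (2.15 ± 0.84, adjusted p = 0.177). Of 18 brush border genes 1 fell, the peptide Guca2b (-0.48 ± 0.12, adjusted p = 0.0356), at a list median of -0.10 (-0.18 with the values as deposited and -0.19 with median centring). Its call was lost without any 1 of treated repeats 2 and 6 and untreated repeats 1, 3, 4, 5 and 6 and with either covariate, and 2 brush border genes were called without treated repeat 1. None of 9 tuft cell genes was called (median 0.07, with 2 at an unadjusted p under 0.05).

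Among 14 measured defence genes of the lining 1 rose and 1 fell. Slpi, an inhibitor of neutrophil elastase secreted onto mucosal surfaces, ran from 8.40 to 10.27 with a median of 9.67 in treated and from 7.27 to 8.06 with a median of 7.57 in untreated mice. No arrays overlapped, and the rise of 1.95 ± 0.29, or 3.86-fold (adjusted p = 0.00283), held with each array left out and with each covariate. Saa2, a serum amyloid protein made by colonocytes, fell from a median of 9.03 to 8.39 (-0.57 ± 0.10, adjusted p = 0.00717), also without overlap. Lypd8, the brightest member, was at -0.03 ± 0.03 (adjusted p = 0.741).

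Genes driven by the circadian clock were lower. The clock runs on Arntl and Clock, which bind E-boxes and switch on the Per, Cry and Nr1d genes and output factors such as Dbp, whose products in turn shut them down. Wee1, the kinase that holds back mitosis, is a known output of this loop; it ran from 6.68 to 7.36 with a median of 7.23 in treated and from 7.93 to 8.36 with a median of 8.04 in untreated mice (-0.94 ± 0.10, adjusted p = 0.000502). Ciart, a repressor of Clock and Arntl, went from a median of 8.04 to 6.52 (-1.36 ± 0.18, adjusted p = 0.00175). Dbp went from a median of 11.19 to 9.94 (-1.33 ± 0.21, adjusted p = 0.00497). None of these 3 genes had overlapping groups, nor had Per1 (-0.76 ± 0.15, adjusted p = 0.0149) or Tef (-0.49 ± 0.08, adjusted p = 0.0041).

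All 13 output and negative-arm genes were lower, with each scaling, at a median of -0.49, and 6 fell, the sixth being Hlf (-0.60 ± 0.14, called in 9 of the 16 fits with an array left out). Nr1d2, the brightest not called, was at -0.39 ± 0.11 (adjusted p = 0.0648), and Per2 (-0.49), Per3 (-0.39), Cry2 (-0.22), Bhlhe40 (-0.22), Nr1d1 (-0.16) and Bhlhe41 (-0.04) were not called. Of the 6 genes of the positive arm 5 were higher, and Arntl rose from a median of 6.86 to 7.49 (0.59 ± 0.12, adjusted p = 0.0189), a call lost with either covariate and not made for a dimmer probe set (0.11 ± 0.11). With the 3'/5' covariate 3 output genes were called and with the tissue means 4, Dbp losing its call with the former and Per1 with both. The hour at which tissue was taken is not given for either group, and its part in these values was not tested.

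The same promoter windows were searched on both strands for the E-box CACGTG and for the D-box TTATGTAA, which Dbp, Tef and Hlf bind. Of the 13 genes 10 had a window, and 4 of these held CACGTG (40%) against 8.09% of all genes with a window. TTATGTAA was found in 1, that of Per3, against 1.11%. The list was drawn up from genes of E-box and D-box output, so these shares are a description and no test. CACGTG was held by Ciart, Per1 and Tef and by Bhlhe41, which was not called, while the called Dbp and Hlf held none. Windows of 3 called genes are shown for where the E-boxes lie, with CACGTG in capitals. They are Ciart at chr3:95882179-95882478 on the minus strand, with 3 copies, Per1 at chr11:69098699-69098998 on the plus strand and Tef at chr15:81802423-81802722 on the plus strand, with 1 copy each. Per1 and Tef each have another window, not shown, which held no copy for Per1 and 1 copy for Tef.
Ciart: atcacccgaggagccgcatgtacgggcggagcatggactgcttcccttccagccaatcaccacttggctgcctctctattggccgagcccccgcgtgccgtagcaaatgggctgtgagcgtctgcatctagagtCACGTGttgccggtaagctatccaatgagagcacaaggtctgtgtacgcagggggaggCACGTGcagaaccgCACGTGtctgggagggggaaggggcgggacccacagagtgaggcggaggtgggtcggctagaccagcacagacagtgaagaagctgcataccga
Per1: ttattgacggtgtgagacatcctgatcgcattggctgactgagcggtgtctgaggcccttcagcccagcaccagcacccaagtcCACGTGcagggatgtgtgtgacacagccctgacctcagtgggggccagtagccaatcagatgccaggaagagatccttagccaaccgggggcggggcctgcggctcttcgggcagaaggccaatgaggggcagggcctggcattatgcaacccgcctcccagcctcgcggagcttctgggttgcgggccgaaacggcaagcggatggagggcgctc
Tef: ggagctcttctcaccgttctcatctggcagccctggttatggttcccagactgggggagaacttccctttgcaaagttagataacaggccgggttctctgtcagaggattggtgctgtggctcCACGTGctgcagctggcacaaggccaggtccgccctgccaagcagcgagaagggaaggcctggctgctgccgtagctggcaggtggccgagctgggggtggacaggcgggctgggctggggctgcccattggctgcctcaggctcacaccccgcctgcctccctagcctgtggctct

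Growth factors of the EGF family that support repair of the lining rose in 2 of 11 measured cases (median 0.22). Hbegf, a heparin-binding ligand of the EGF receptor, ran from 7.31 to 8.32 with a median of 7.62 in treated and from 5.98 to 7.00 with a median of 6.64 in untreated mice (1.09 ± 0.16, adjusted p = 0.00311). Nrg1, a ligand of Erbb3 made by stromal cells, ran from 5.44 to 6.54 with a median of 5.94 against 4.26 to 5.03 with a median of 4.72 (1.27 ± 0.18, adjusted p = 0.00262). Neither gene had overlapping groups, and both held with each array left out and each covariate. The receptor Erbb3 was at -0.22 ± 0.11 (adjusted p = 0.296), and Ereg (1.15) and Egfr (0.38) were not called.

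Early-response and matrix genes gave a few calls each. Egr1, a transcription factor that serum and injury switch on within minutes, rose from a median of 7.57 to 8.60 (0.99 ± 0.17, adjusted p = 0.00837), and Egr2 rose by 0.80 ± 0.19 (adjusted p = 0.031), a call lost without any 1 of treated repeats 6 and 7 and untreated repeats 1, 4 and 5. Fos was at 0.73 ± 0.26 (adjusted p = 0.132), and 2 of 17 such genes rose, at a median of 0.23. In matrix remodelling Plat, the tissue plasminogen activator, rose by 0.67 ± 0.11 (adjusted p = 0.00718) and the stromelysin Mmp3 by 1.00 ± 0.26 (adjusted p = 0.0462, a call lost without any 1 of 13 arrays, all but treated repeats 2, 8 and 10), with 2 of 15 called and a median of 0.15. A dimmer probe set of Plat was not called (-0.02 ± 0.26). None of Egr1, Egr2, Plat and Mmp3 was called with the 3'/5' covariate. In the prostaglandin pathway 1 of 14 genes was called (median -0.03): Ptger4, a receptor for prostaglandin E2, fell without overlap from a median of 9.33 to 8.80 (-0.59 ± 0.09, adjusted p = 0.0035), and held with each array left out and each covariate. Ptgs2, the inducible cyclooxygenase, was not called (0.13 ± 0.19, adjusted p = 0.789).

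Macrophage markers were higher in 16 of 17 cases, at a median of 0.44, and 3 rose. Cd68, a protein of phagocyte lysosomes, ran from 7.19 to 8.24 with a median of 7.53 in treated and from 6.36 to 7.02 with a median of 6.80 in untreated mice (0.88 ± 0.17, adjusted p = 0.0137). Lyz2, the lysozyme of myeloid cells, went from a median of 10.32 to 11.12 (0.77 ± 0.13, adjusted p = 0.00767) and Ms4a7 from 7.70 to 8.38 (0.61 ± 0.12, adjusted p = 0.0146). The defining receptors Csf1r (0.17 ± 0.09, adjusted p = 0.344), Adgre1 (0.20) and Cx3cr1 (-0.14) were not called. Gpnmb, a membrane protein of lipid-laden macrophages, was among the 10 largest stable rises (1.39 ± 0.25, adjusted p = 0.00844). A second probe set of it lay on the floor on 5 treated and 5 untreated arrays and gave no difference to compare. Without treated repeat 8 the list had 5 calls, with the tissue means 1 and with the 3'/5' covariate none.

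Chemokines rose in 2 of 22 cases (median 0.14). Ccl8, a chemokine that draws monocytes, ran from 7.00 to 9.63 with a median of 8.76 in treated and from 6.16 to 7.58 with a median of 6.68 in untreated mice (1.81 ± 0.32, adjusted p = 0.00844), and treated repeat 8 was the one array within the untreated range. Ccl9 rose by 0.80 ± 0.16 (adjusted p = 0.0149). The brightest chemokine not called, Ccl6, was at -0.04 ± 0.05 (adjusted p = 0.76). The count was 4 without treated repeat 2 or treated repeat 10, and neither Ccl8 nor Ccl9 was called with the 3'/5' covariate.

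Inflammatory cytokines did not pass the test. None of 19 measured was called, at a median of 0.18. At an unadjusted p under 0.05 stood 4 of them, near the share of all genes (3720 of 18193). Il6 lay on the floor on all 16 arrays, and Tnf lay on it on all 6 untreated arrays and at the median of treated ones, with a highest value of 5.93. Il1b had medians of 5.83 and 5.37 (0.51 ± 0.19, adjusted p = 0.162) and Il18, made by the lining itself, 11.41 and 11.11 (0.29 ± 0.09, adjusted p = 0.101). Leaving out treated repeat 1 gave 2 calls in this list and leaving out untreated repeat 6 gave 1.

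The receptors and adaptors of IL-1, IL-18 and Toll-like receptor signalling were also without a call in all 27 measured cases, at a median of 0.06 with 2 at an unadjusted p under 0.05. Myd88, the adaptor shared by most of them, had medians of 8.50 and 8.45 (0.06 ± 0.06, adjusted p = 0.668). Il18r1 was at 0.23 ± 0.33 (adjusted p = 0.78), the decoy receptor Il1r2 at 0.64 ± 0.62 (adjusted p = 0.656), and Pycard, the brightest, at -0.00 ± 0.05. Among 11 genes of NF-kB feedback Vcam1, an adhesion molecule of vessels, rose (0.61 ± 0.14, adjusted p = 0.0309, with the other probe sets at 0.27 and 0.05 and not called), a call lost with either covariate and without any 1 of treated repeat 7 and untreated repeats 3 to 6, and the inhibitor Nfkbia was at -0.05 ± 0.07 (median of the list 0.03, 2 calls without any 1 of treated repeats 8 to 10 and untreated repeat 2).

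Interferon-induced genes were all higher, 25 of 25 with each scaling, at a median of 0.37, and none was called, with 7 at an unadjusted p under 0.05. Cxcl9, a chemokine induced by interferon gamma, was at 1.22 ± 0.38 (adjusted p = 0.0886) and Oas1a at 0.15 ± 0.19 (adjusted p = 0.752). The list mean ran from 7.00 to 8.85 with a median of 7.34 in treated and from 6.85 to 7.48 with a median of 7.09 in untreated mice. In all 6 genes of MHC class II the treated mean was above the untreated one, by a median of 0.20 and without a call, Cd74 at 0.40 ± 0.21 (adjusted p = 0.327) and H2-Aa at 0.27 ± 0.20. Leaving out untreated repeat 2 gave 2 interferon calls and 1 class II call, and leaving out treated repeat 8 gave 1 interferon call.

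Of the plasma cell genes 3 of the list fell, while other lymphocyte and granulocyte genes were not called. Jchain, the joining chain of secreted IgA, ran from 10.05 to 11.83 with a median of 11.003 in treated and from 11.73 to 12.49 with a median of 11.96 in untreated mice (-1.09 ± 0.25, adjusted p = 0.0294). Mzb1 (-1.08 ± 0.23), a chaperone of antibody assembly, and Tnfrsf17 (-1.13 ± 0.24), a survival receptor of plasma cells, fell too, as did the antibody light chain segment Igkv6-14 (-1.53 ± 0.31, adjusted p = 0.0152). Of the 14 measured B and plasma cell genes 3 fell, at a median of -0.11, and the brightest not called was Sdc1 (-0.10 ± 0.12). Without untreated repeat 1 none of the 3 was called, and without untreated repeat 3 or 4 one of them was, and none of the 3 was called with either covariate. None of 18 T and NK cell genes (median 0.08), 10 neutrophil genes (median 0.15) and 14 mast cell and eosinophil genes (median 0.16) was called, with 2, 2 and 0 at an unadjusted p under 0.05. Leaving out treated repeat 2 or untreated repeat 2 gave 1 call among T and NK cell genes, and leaving out treated repeat 7 gave 1 among mast cell and eosinophil genes. S100a8 of neutrophils had medians of 5.74 and 4.56 (1.58 ± 0.62, adjusted p = 0.179), highest on treated repeats 1 and 2. Gzma of cytotoxic cells was at -0.61 ± 0.23 (adjusted p = 0.159), Zap70 at 0.02 ± 0.17, Kit at -0.02 ± 0.14 and Mcpt2 at 0.63 ± 0.34.

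**Figure D5:**
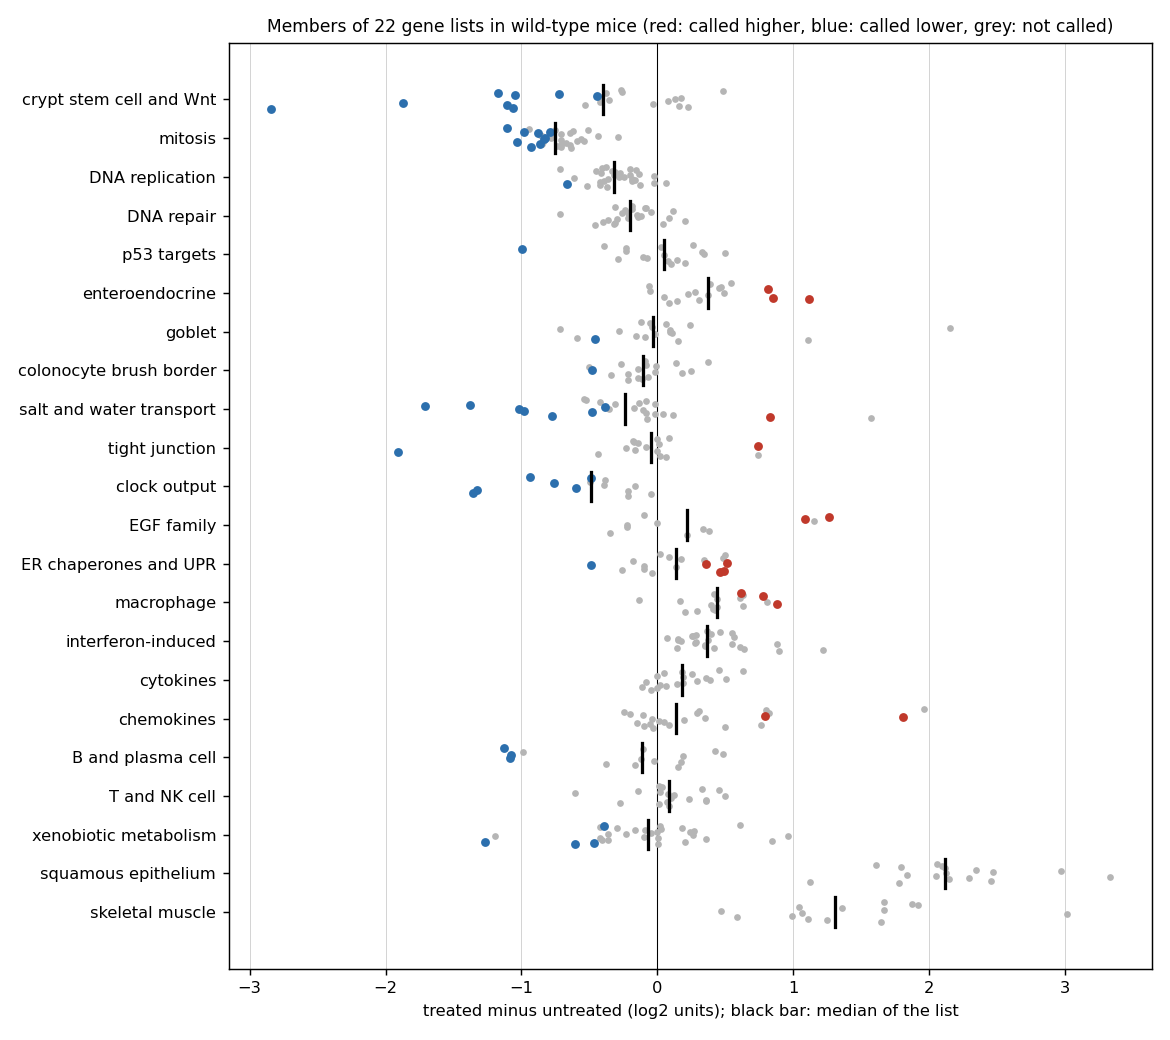
Each point is a gene of 1 of 22 lists (y axis) at its treated minus untreated difference in log2 units (x axis), red where it was called higher, blue where it was called lower and grey where it was not called, and black bars are list medians. The mitosis median of -0.75 and the clock output median of -0.49 lie left of 0, the macrophage median of 0.44 right of it, and the squamous genes lie furthest right with none called.

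Chaperones of the endoplasmic reticulum rose in 4 of 17 cases and 1 gene of its stress response fell (median 0.14). Calr, the calcium-binding chaperone calreticulin, ran from 11.48 to 11.82 with a median of 11.70 in treated and from 11.07 to 11.35 with a median of 11.22 in untreated mice (0.46 ± 0.06, adjusted p = 0.00185), and its other 2 probe sets were called as well. Hspa5 (0.52 ± 0.11), Hsp90b1 (0.36 ± 0.06) and Creld2 (0.49, called in 11 of the 16 fits with an array left out) rose too. Dimmer probe sets of Hspa5 were at 0.64 ± 0.12 (called) and -0.07 ± 0.11 (not called). A dimmer one of Hsp90b1 was not called at 0.22 ± 0.08. Of the 4 rises that of Calr held with either covariate. Herpud1, which helps to clear misfolded proteins, fell by 0.49 ± 0.09 (adjusted p = 0.00817), a call lost with either covariate, and the stress regulator Xbp1 was at 0.02 ± 0.05 (adjusted p = 0.917).

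Some metabolic genes fell, in lists whose members went both ways. Otc, the urea cycle enzyme that makes citrulline, ran from 3.37 to 5.60 with a median of 4.64 in treated and from 6.31 to 6.61 with a median of 6.42 in untreated mice (-1.77 ± 0.29, adjusted p = 0.00605). Cps1, the enzyme before it, went from a median of 8.09 to 6.66 (-1.45 ± 0.27, adjusted p = 0.0105), and Oat, which links ornithine to proline, from 10.72 to 10.38 (-0.37 ± 0.06, adjusted p = 0.00486). These 3 of 11 genes of arginine and urea metabolism fell, at a median of -0.12, and Slc6a14, the brightest not called, was at 0.04 ± 0.10. Of the 11 genes 5 were higher, by up to 2.04, and none of these was called. Otc, Cps1 and Oat were all called with the tissue means and none of them with the 3'/5' covariate.

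In xenobiotic metabolism 4 of 30 genes fell, at a median of -0.07 (-0.12 with the values as deposited and -0.13 with median centring). Higher were 13 of the 30, by up to 0.96 and without a call. Cyp2d26, a cytochrome P450, went from a median of 7.17 to 5.97 without overlap (-1.27 ± 0.22, adjusted p = 0.00759). The efflux pumps Abcb1a (-0.60 ± 0.14, adjusted p = 0.0271) and Abcg2 (-0.47 ± 0.09, adjusted p = 0.0134) and the glucuronidating enzyme Ugt2b34 (-0.39 ± 0.09, adjusted p = 0.0308) fell too, none of them with overlapping groups. Leaving out untreated repeat 1, 3, 4, 5 or 6 left 2 calls, and none of the 4 was called with either covariate. Gsto1, the brightest not called, was at 0.24 ± 0.09 (adjusted p = 0.132).

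Lipid and energy genes differed little. Of 18 genes of fatty acid oxidation and PPAR targets 3 fell by less than 0.4, Plin2 (-0.30 ± 0.06), Slc25a20 (-0.36 ± 0.09) and Ehhadh (-0.28 ± 0.07), at a list median of 0.04 (0.02 with the values as deposited), and Plin2 was the one called with each array left out. The list had 1 call without any 1 of treated repeats 2, 3, 4 and 6 and untreated repeats 1, 3, 4, 5 and 6, and none of the 3 was called with median centring or with either covariate. Hadhb was at 0.13 ± 0.10, and 10 of the 18 genes were higher, none of them called. None of 16 cholesterol synthesis genes was called, at a median of 0.15 with 15 higher and 5 at an unadjusted p under 0.05, Hmgcs1 at 0.33 ± 0.10 (adjusted p = 0.0783) and Lss at 0.52 ± 0.19. It had 1 call without treated repeat 1 or 10 and 2 without treated repeat 2. In hypoxia and glycolysis Vegfa, the vessel growth factor, fell by 0.42 ± 0.08 (adjusted p = 0.0137), 1 of 14 called at a median of -0.05 (-0.11 with the values as deposited, 2 calls without treated repeat 5 or 8 or untreated repeat 3, and none with the 3'/5' covariate), and Ldha was at -0.00 ± 0.05.

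The largest stable rise of all genes was in Isx, an intestinal homeobox factor that vitamin A induces and that represses uptake of carotenes. It ran from 4.90 to 7.95 with a median of 5.91 in treated and from the floor to 4.60 with a median of 4.22 in untreated mice (2.26 ± 0.45, adjusted p = 0.0152). In the list of position genes it was 1 of 13 that rose, and Hoxd11 fell (-0.41 ± 0.11, adjusted p = 0.0456), a call lost without any 1 of 13 arrays, all but treated repeat 2 and untreated repeats 4 and 5. The call of Hoxd11 was also lost with the values as deposited, median centring, either covariate, the Xist covariate, the smooth muscle mean, 32 arrays and treated repeats 1 and 2 left out together. The list median was -0.18. Serpina3n, an inhibitor of serine proteases, rose from a median of 4.67 to 6.50 (1.79 ± 0.38, adjusted p = 0.0199). Csta1, an inhibitor of cysteine proteases, rose from 7.59 to 9.04 without overlap (1.55 ± 0.26, adjusted p = 0.00603) and was highest on treated repeat 1 at 10.31, the array with the highest squamous mean. Acacb, an acetyl-CoA carboxylase that makes a brake on fat burning (1.74 ± 0.36, adjusted p = 0.0171), was also highest on treated repeat 1, at 7.26, and a second probe set lay on the floor on 8 treated and 4 untreated arrays. Lpcat4 (1.55 ± 0.28), a phospholipid acyltransferase, Uroc1 (1.27 ± 0.24), an enzyme of histidine breakdown, and Cwh43 (1.27 ± 0.25) rose as well, and none of Isx, Serpina3n, Acacb, Lpcat4, Uroc1 and Cwh43 was called with either covariate, nor Csta1 with that of the control probe sets. A dimmer probe set of Uroc1 was not called (-0.0009 ± 0.25) and lay on the floor on 5 treated and 2 untreated arrays. Among the 10 largest stable falls outside the groups above were Tet3 (-1.39 ± 0.28), an enzyme that oxidises 5-methylcytosine and lay on the floor on 7 treated arrays, and Dnah8 (-1.38 ± 0.29), a dynein heavy chain, neither of them called with the tissue means. A dimmer probe set of Dnah8 was not called (0.007 ± 0.18).

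Vessel genes gave small rises and other wall cells few calls. Of 15 endothelial genes 3 rose, at a median of 0.15: Lyve1 of lymphatic vessels (0.56 ± 0.12, adjusted p = 0.0188), Sox17 (0.55 ± 0.13, adjusted p = 0.0321) and the angiopoietin receptor Tek (0.37 ± 0.08, adjusted p = 0.0261), with 1 call left without untreated repeat 2 or 4 and Plvap at 0.10 ± 0.11. Pdgfra rose among 15 fibroblast genes (0.56 ± 0.12, adjusted p = 0.0186; 2 calls without treated repeat 8), whose median was 0.11, and the collagen Col3a1 was at 0.09 ± 0.09. Neither Lyve1, Sox17, Tek nor Pdgfra was called with the 3'/5' covariate. None of 12 smooth muscle genes (median 0.24, Acta2 at 0.16 ± 0.07, Des at 0.42 ± 0.18), 12 genes of enteric neurons and glia (median 0.18, Vip at 0.07 ± 0.13, Tubb3 at 0.66 ± 0.30) and 6 adipocyte genes (median 0.69, Adipoq at 1.26 ± 1.24, Plin4 at 0.49 ± 0.24) was called, with 3, 3 and 0 at an unadjusted p under 0.05. Among the colon markers Aqp8 was the 1 of 7 called (2 without treated repeat 5), at a median of -0.14 (-0.22 with the values as deposited and -0.23 with median centring), and among genes of other gut regions Fabp6 fell (-0.45 ± 0.10, adjusted p = 0.0274; median of the list -0.15, 1 of 6 called, and none without untreated repeat 2, 3 or 5 or with either covariate). Skeletal muscle genes such as Acta1 (1.65 ± 0.85, adjusted p = 0.328) and Myh1 (3.02 ± 1.45) had no call.

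The responses of wild-type and Myd88-deficient mice were set side by side in a fit over all 32 arrays, where the difference of the responses was tested as an interaction. Treated against untreated wild-type mice gave 270 calls in it and treated against untreated knockout mice 3244 (17.8%). Among the wild-type calls lost in it were Cftr, Kcnn4, Cldn2, Saa2, Hbegf, Egr1, Cd68, Lyz2 and Abcg2. The difference of the responses was called for 6 of 18193 genes (0.033%), and for none of the 145 genes chosen by the naming rule, which does not show that they responded alike. Coq10b, a coenzyme Q binding protein of mitochondria that was named here after its value was seen, was 1 of 2 genes called both in wild-type mice and for the difference: it was at -0.63 in wild-type and -0.03 in knockout mice (difference -0.60 ± 0.11, adjusted p = 0.0349). In that fit Ascl2 was at -2.97 and Lgr5 at -1.81 in knockout mice, with differences at adjusted p = 0.984 and 1. Cldn2 was at -1.93 in wild-type and -4.11 in knockout mice (difference 2.18 ± 0.90, adjusted p = 0.354), and Slpi at 1.97 and 3.38 (-1.40 ± 0.59, adjusted p = 0.373). Among the 145 genes of the naming rule, the smallest p for a difference was that of Abcg2, at -0.47 in wild-type and 0.36 in knockout mice (-0.83 ± 0.23, adjusted p = 0.1495). Per1 was at -0.77 and -0.08 (-0.69 ± 0.22, adjusted p = 0.208) and Uroc1 at 1.26 and -0.39 (1.65 ± 0.52, adjusted p = 0.208).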

How the data were processed

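RNA of the distal colon was hybridised to Affymetrix mouse arrays, 1 array per mouse, and p-values measure the spread between these mice. The authors deposited log2 signals of 45101 probe sets; the summarisation software is not given in the sources used here. The deposited values end at a linear signal of 10 (log2 of 3.322), and their linear mean after trimming 2% at each end was nearly the same on all arrays. Control probe sets (64) and those with several symbols (932) or none (9160) were left out, and 34741 of the other 34945 had their symbol matched by Entrez gene. The 16 wild-type arrays were quantile-normalised and fitted with limma 3.58.1 in R 4.3.3 (lmFit and eBayes, 14 residual degrees of freedom), with Benjamini-Hochberg adjustment over all 34945 probe sets. On simulated data the fit recovered 91% of 100 probe sets changed by 2-fold and 100% of 100 changed by 4-fold, with 4.5% of calls false. The simulation used independent normal noise for each probe set, without a floor or signal shared between genes. Its changed probe sets lay above the 40th percentile of mean signal. These rates hold for that setting and were not measured on the real arrays. Precision is limited by the number of arrays.

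The 45 gene lists hold 773 entries, of which 724 had a usable probe set, and they and the members were chosen with earlier results of these data known. The rule for named genes took, among genes called with every array left out, the 10 that rose most and the 10 that fell most, without predicted genes and with at most 1 immunoglobulin gene each way. It added up to 4 called genes per list, the stable ones first, the brightest gene not called (in lists without a call also the one with the largest difference), a core set of 19 genes and the genes used as checks, 145 genes in all. Lists are described by counts and medians, with no test. Alternatives were the scaling, a filter on dim probe sets, other ways to sum probe sets, a fit over 32 arrays, a block for the repeat number, weights for arrays, another prior, covariates, a stricter threshold and leaving out arrays. Leaving out probe sets on the floor on all 16 arrays was added after seeing the data.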

Additional observations from a re-analysis of the deposited data

Results flagged for a closer look

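Single arrays stood apart from the rest of their group for the genes below, each with its log2 signal and the nearest other array of the group. For normally spread values chance alone gives this in about 1 in 20 groups, and many groups of arrays were screened. The rate does not hold where most arrays of a group lay on the floor. This was so for Retnlb and Myh1 in untreated and Mgmt in treated mice. No explanation was tested.

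Treated repeat 1, the array with the highest squamous and adipocyte means, was high for Perp, an adhesion protein of stratified epithelia (12.89, next 11.28), for Hadhb (11.78, next 11.29) and for Acacb (7.26, next 5.78). The same array was low for colon genes: Hoxb13 stood at 10.71 (next 11.32), the prostaglandin-degrading Hpgd at 9.98 (next 10.9), Slc26a3 at 12.62 (next 12.99), Slc6a14 at 11.05 (next 11.45) and Zg16 at 13.04 (next 13.2). It was low for the hormone genes Pyy at 10.33 (next 10.84) and Tac1 at 9.48 (next 9.93) as well.

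Of the other treated arrays, repeat 2 was high for Il1b at 6.88 (next 6.06) and Gsto1 at 12.94 (next 12.61). Repeat 7 was low for Dnah8 at 3.47 (next 4.65) and high for Mgmt at 4.99 (next 4.1), a gene near the floor elsewhere.

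Among untreated arrays, repeat 3 held muscle signal, with Acta1 at 11.37 (next 7.47) and Myh1 at 9.13 (next 3.52), and was high for Acacb at 4.91 (next 3.83). Repeat 2 was high for Ms4a7 at 8.06 (next 7.79) and Retnlb at 3.72, where the others lay on the floor, and low for Hoxb13 at 11.26 (next 11.61). Repeat 4 was high for Alpi at 5.76 (next 5.1) and low for Tac1 at 9.41 (next 9.7). Sgk1 stood at 10.93 on repeat 1 (next 11.58), Cldn8 at 10.46 on repeat 5 (next 10.23), Csta1 at 6.94 on repeat 6 (next 7.42) and Slc25a20 at 11.68 on repeat 6 (next 11.45).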

How the results depend on the processing

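The number of genes called depended on what was held fixed, and no named gene changed direction in a call. Against 753 calls (311 higher, 442 lower), the 3'/5' covariate left 107 (39 and 68), of which 104 were among the 753, the tissue means 241 (93 and 148; 195 shared), the smooth muscle mean 489 (200 and 289), the fit over 32 arrays 270 (86 and 184) and an adjusted p under 0.01 left 153 (62 and 91). Array weights gave 1090 calls, 488 of them higher. With 1 array left out the calls ran from 395 to 996, those higher from 161 to 439 and those lower from 233 to 603. The other settings gave between 638 and 992 calls, and 39.5% of calls were higher with the values as deposited against 41.3%. The cause of these shifts was not tested. Of the 144 named genes with a value, 77 lost their call with the replicate block, 61 with the 3'/5' covariate, 46 at an adjusted p under 0.01, 42 with the tissue means, 34 with 32 arrays and 21 with the smooth muscle mean, while 6 did so with the mean of a gene's probe sets. The repeat numbers do not pair the mice by the labels: deviations of same-numbered arrays correlated between -0.18 and 0.082, and with the replicate block 14 genes were called (2 higher, 12 lower). Values on the floor bound a level and do not measure it.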

Other observations

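The genes here were chosen after their values were seen and are given as values only. Clca3b, of the calcium-activated chloride channel regulator family, ran from 8.46 to 9.24 with a median of 8.91 in treated and from 9.84 to 10.18 with a median of 9.96 in untreated mice (-1.11 ± 0.11, limma adjusted p = 0.000202). Its relative Clca4b was higher, with a call kept in 5 of the 16 fits with an array left out (2.43 ± 0.60, adjusted p = 0.0387). Pappa2, a protease that frees insulin-like growth factors from their binding proteins, ran from 7.09 to 7.68 with a median of 7.29 in treated and from 6.07 to 6.39 with a median of 6.35 in untreated mice (1.03 ± 0.09, adjusted p = 0.000143). Both Clca3b and Pappa2 kept their calls with each array left out and with each covariate.

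Kcne3, a subunit of the potassium channel that drives chloride secretion, went from a median of 10.94 to 10.03 (-0.98 ± 0.14, adjusted p = 0.00195), and its partner Kcnq1 fell by 0.94 ± 0.17 (adjusted p = 0.00986). Usp2, a ubiquitin protease under the control of the clock and of aldosterone, went from a median of 8.99 to 7.69 without overlap (-1.16 ± 0.16, adjusted p = 0.00254). Cyp11a1, the first enzyme of steroid synthesis, went from a median of 6.14 to 4.83 (-1.33 ± 0.26, adjusted p = 0.0146). The call was made for 1 of its 3 probe sets and lost with either covariate. The glucocorticoid receptor Nr3c1 fell by 0.25 ± 0.06 (adjusted p = 0.036), with a call kept in 7 of the 16 fits. Of its 6 probe sets 2 were called, and their mean was not. Not called were the mineralocorticoid receptor Nr3c2 (-0.36 ± 0.14, adjusted p = 0.175), Hsd11b2 (-0.10 ± 0.08) and the glucocorticoid-induced genes Tsc22d3 (-0.06), Fkbp5 (0.07), Zbtb16 (0.15) and Klf9 (-0.30).

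Stra6l, a retinol transporter, went from a median of 6.13 to 4.80 without overlap (-1.09 ± 0.18, adjusted p = 0.00671). Dhrs3, which returns retinal to retinol, rose by 0.49 ± 0.10 (adjusted p = 0.0158). The retinoic acid-making enzyme Aldh1a3 (1.21 ± 0.26, adjusted p = 0.0218) and the degrading enzyme Cyp26b1 (1.35 ± 0.31, adjusted p = 0.0311) rose, with calls lost without untreated repeat 3 for the former and without treated repeat 6 or untreated repeat 2, 4 or 5 for the latter. Aldh1a1 (0.11), Aldh1a2 (-0.26) and Rdh10 (0.14) were not called.

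Among carboxylesterases and related enzymes Ces2a fell from a median of 9.90 to 8.76 (-1.24 ± 0.23, adjusted p = 0.0111), Ces1e by 1.30 ± 0.28 (adjusted p = 0.0212, lost without untreated repeat 1) and Aadac by 1.05 ± 0.17 (adjusted p = 0.00596), while Ces2e (-0.43), Ces1d (0.05), Ces1f (-0.66) and Ces1g (-0.09) were not called. Also higher were Lbp, which carries bacterial lipopolysaccharide (1.05 ± 0.15, adjusted p = 0.0027), Steap4 (1.09 ± 0.23, adjusted p = 0.0182), Thbs1 (1.13 ± 0.20, adjusted p = 0.00813), the actin-capping Capg (1.15 ± 0.20, adjusted p = 0.00688) and the oncostatin M receptor Osmr (0.68 ± 0.12, adjusted p = 0.00844). For Lbp, Steap4 and Capg 1 of 2 probe sets was called, and for Osmr 1 of 3. With the mean of a gene's probe sets Lbp and Steap4 lost their calls. In the fit over 32 arrays Lbp, Steap4, Thbs1 and Osmr did. Sct, the hormone secretin, rose by 0.82 ± 0.21 (adjusted p = 0.0447, called in 3 of the 16 fits with an array left out), and the vitamin D receptor Vdr fell by 0.65 ± 0.12 (adjusted p = 0.0105). With the 3'/5' covariate Clca3b, Pappa2, Usp2, Kcne3, Stra6l and Lbp were called, and none of the other genes named here was. With the tissue means Clca4b, Cyp11a1, Nr3c1, Cyp26b1, Ces2a, Steap4, Thbs1, Osmr, Sct and Vdr lost their calls, and the other called genes named here kept theirs.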
